A study of Homo sapiens with 4 samples.

Results

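AP-1 is a family of transcription factors whose subunits share a basic DNA-contacting region and a leucine zipper (bZIP) that holds them together in pairs. JUN, JUNB and JUND can pair with each other or with FOS, FOSB, FOSL1 (FRA1) and FOSL2 (FRA2), whereas the FOS proteins need a JUN partner to bind DNA stably. ATF3, BATF3 and MAFF are related bZIP proteins, of which MAFF, a small MAF protein, has no transactivation domain of its own. FOS and FOSB are known for brief transcription after a stimulus, while FOSL1 is known to accumulate under sustained RAS and ERK signalling. All 10 of these genes, chosen by gene symbol, are among the 12033 genes measured.

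RNA was sequenced from BJ-indRASG12V cells, human BJ fibroblasts immortalized with hTERT in which 4-OHT switches on RASG12V, so that they enter oncogene-induced senescence (OIS). All cells received 4-OHT for 14 days, so that no library comes from cells without induced RAS, and every culture carried a CRISPR vector. sgRNA-AP1-69 (guide 69) and sgRNA-AP1-71 (guide 71) both cut the AP-1 site of the enhancer Enh AP1-OIS1, sgRNA-FOXF1 cuts the FOXF1 gene, and the control guide sgRNA-NT has no target. Each of these conditions has a single library, made from transduced, drug-selected cells that carry a mixture of edits. The study reports that cells with either enhancer guide or a guide to FOXF1 bypass OIS, with less β-galactosidase and more BrdU staining. A difference from sgRNA-NT may thus go with the guide's target or with this bypass, and these cannot be told apart. Only the 2 enhancer guides give a spread, between different guides, and nothing in the labels says that they are repeat cultures. Values are RPKM (reads scaled to transcript length and to the reads mapped), quantile-normalized by the authors and floored at 1 RPKM. Depth cannot be recovered from such values, so their counting error is unknown.

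FOXF1 itself was at 11.1 RPKM with guide 69, 7.8 with guide 71 and 25 with sgRNA-FOXF1, against 29.6 RPKM with sgRNA-NT. An edited FOXF1 transcript is still counted, so this level does not measure loss of the protein in sgRNA-FOXF1 cells. By western blot the study reports effective FOXF1 knockout, and less FOXF1 protein with either enhancer guide. Of 18 fibroblast markers, 17 had a mean of at least 2 RPKM, and FAP was listed at the floor in all 4 libraries. Of the markers of other cell types, 2 of 10 epithelial (KRT8 and KRT18), 0 of 8 endothelial and 2 of 10 leukocyte genes (CD14 and LAPTM5) were among the genes measured. With both enhancer guides 8 of 17 fibroblast markers were at least 1.5-fold lower and 2 higher, beside 8.58% and 6.69% of all genes compared. KRT8 and LAPTM5 were also higher by that rule, whereas KRT18 and CD14 were not. KRT18 was at 135.5, 76.0 and 127.5 RPKM with guide 69, guide 71 and sgRNA-FOXF1, against 76.0 RPKM with sgRNA-NT. CD14 was lower in these libraries, at 7.9, 8.5 and 6.0 RPKM, against 9.8 RPKM with sgRNA-NT. The fibroblast markers had median log2 ratios of -0.60, -0.51 and -0.06 with guide 69, guide 71 and sgRNA-FOXF1. Their summed level went the other way, at 6772, 6899 and 6832 RPKM in these libraries, against 5567 RPKM with sgRNA-NT, with VIM at 2645, 2645 and 2382 RPKM, against 1775 RPKM with sgRNA-NT, and S100A4 at 2053, 2296 and 1966 RPKM, against 1167 RPKM with sgRNA-NT. The part of these markers in the members' values was not tested.

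The AP-1 dimer recognizes the heptamer TGACTCA, and many bZIP pairs also bind the octamer TGACGTCA. The sequences below show the site cut in the enhancer and the matches found by letters in the promoters of members expressed above the floor, since JUN-family genes are known to be controlled by AP-1 itself. Each is given 5′ to 3′ on the strand named, with the match in capitals.
Enhancer AP-1 site, chr16:86421248-86421308 of GRCh37, plus strand, intergenic: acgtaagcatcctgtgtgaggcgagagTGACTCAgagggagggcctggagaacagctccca
JUN promoter, chr1:58784080-58784141 of GRCh38.p14, minus strand: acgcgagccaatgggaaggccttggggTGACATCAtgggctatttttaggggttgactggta
JUND promoter, chr19:18281788-18281849 of GRCh38.p14, minus strand: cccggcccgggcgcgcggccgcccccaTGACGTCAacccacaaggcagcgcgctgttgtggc
MAFF promoter, chr22:38201913-38201974 of GRCh38.p14, plus strand: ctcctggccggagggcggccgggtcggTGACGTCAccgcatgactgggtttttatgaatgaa
FOSL2 start region, chr2:28392851-28392879 of GRCh38.p14, plus strand: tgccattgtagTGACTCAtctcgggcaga

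The promoter sequences are those of RefSeq, which hold 8 of the 10 members, from 250 bases before to 50 after the start of transcription. FOSL1 and BATF3 are not among the 8. The letter strings TGACTCA, TGACGTCA and TGACATCA, none of which contains another, were searched on both strands. TGACTCA was found in FOSL2 alone, beginning at base 5 after the start, and in 4.95% of all 35116 promoters. TGACGTCA was found in JUND and in MAFF, where it begins at base -200 and at base -54, and in 1.85% of all promoters. TGACATCA was found in JUN and ATF3, beginning at bases -67 and -123, and in 2.61% of all promoters. A match of letters is no measurement of binding.

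The order of the members by mean RPKM was FOSL1, JUNB, JUN, JUND, MAFF, FOSL2 and BATF3, with FOS, FOSB and ATF3 at the floor. FOSL1 ranged from 46.2 to 126.6 RPKM over the 4 libraries and lay above every value of every other member. The JUN-family genes came next, at 31.3 to 36.2 RPKM for JUNB, 25.1 to 36.7 for JUN and 21.7 to 31.6 for JUND. These 3 ranges overlap. Within each of the 4 libraries JUND was the lowest of the JUN family, whereas JUN and JUNB changed places between libraries, with JUN above JUNB in sgRNA-FOXF1 cells only. MAFF (10.8 to 16.6 RPKM) and FOSL2 (5.4 to 12.1 RPKM) came below them with overlapping ranges, and MAFF was above FOSL2 in each of the 4 libraries. FOS, FOSB and ATF3 were at 1.0 RPKM, the floor, in each of the 4 libraries, so that their level is at most 1 RPKM and any difference below it is not detectable. BATF3, known for its part in dendritic cell development, was at 1.0 RPKM with guide 69, 1.4 with guide 71 and 1.4 with sgRNA-FOXF1, against 1.0 with sgRNA-NT.

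**Figure D1:**
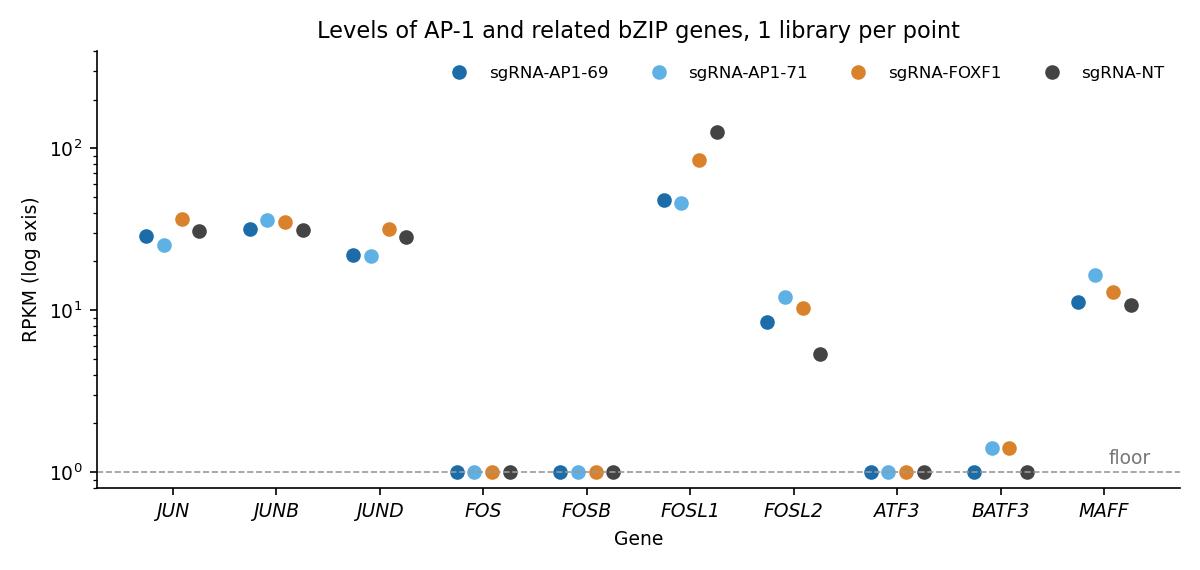
RPKM on a log axis for each of the 10 genes, with 1 point per library and the floor of 1 RPKM as a dashed line. FOSL1 has the highest points, at 46.2 to 126.6 RPKM, and FOS, FOSB and ATF3 lie on the floor throughout.

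In the annotation of GRCh37 the members lie on 6 chromosomes. JUN (ENSG00000177606, chromosome 1, 59242517 to 59249720, minus strand), JUNB (ENSG00000171223, chromosome 19, 12902300 to 12904129, plus strand) and JUND (ENSG00000130522, chromosome 19, 18390504 to 18392432, minus strand) have canonical transcripts of 1 exon. FOSL1 (ENSG00000175592, chromosome 11, 65659520 to 65668044, minus strand) and FOSL2 (ENSG00000075426, chromosome 2, 28615315 to 28640184, plus strand) have 4 exons each, as do FOS, FOSB and ATF3. The FOSL1 transcript of 1702 nt is short and the FOSL2 transcript of 6713 nt is the longest of the members. JUNB overlaps HOOK2 and MAFF (ENSG00000185022) overlaps PLA2G6 on the opposite strand, and FOSL2 overlaps FOSL2-AS1 on the opposite strand and the annotated gene ENSG00000270640 on its own. Whether counting used the strand is not given in the sources used here, and reads of such neighbours could not be separated.

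The first comparison concerns the AP-1 genes themselves when the AP-1 site of the enhancer is mutated, with both enhancer guides set against sgRNA-NT. FOSL1 was lower with both guides, FOSL2 was higher, and JUN, JUNB, JUND and MAFF differed less. FOSL1 was at 47.7 RPKM with guide 69 and 46.2 with guide 71, against 126.6 RPKM with sgRNA-NT. The guides lie close together and far below the control, 2.65-fold and 2.74-fold. FOSL2 was at 8.5 RPKM with guide 69 and 12.1 with guide 71, against 5.4 RPKM with sgRNA-NT, which is 1.57-fold and 2.24-fold higher. Both guides lie above the control for FOSL2, with a wider gap between the guides than for FOSL1. In a bulk sample, fewer cells expressing a gene and less RNA per cell cannot be told apart.

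In log2 units FOSL1 differed from sgRNA-NT by -1.43 (SD 0.033, n = 2 guides) and FOSL2 by 0.91 (SD 0.36, n = 2 guides). Of the 7596 genes that averaged 2 RPKM or more, 116 had a lower log2 difference than FOSL1 and 202 had a higher one than FOSL2. At a 1.5-fold difference with both guides, 1 of the 6 members above that mean was higher and 1 was lower, beside 6.69% and 8.58% of all genes compared. With guide 69 alone those lower were again 1 (9.86% of all genes) and those higher 1 (8.08%), and with guide 71 alone 1 was lower (14.6%) and 2, FOSL2 and MAFF, were higher (14.0%). Counts this small do not set the members as a group apart from the background.

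By limma with a mean-variance trend and Benjamini-Hochberg adjustment over all genes compared, 0 of 6 members passed an adjusted p of 0.05, as did 0 of 7596 genes (0%). At an unadjusted p under 0.05 there were 2 members, FOSL1 and JUND, both lower with the guides, beside 24.3% of all genes. In that limma fit the adjusted p was 0.205 for FOSL1, 0.22 for FOSL2 and 0.205 for JUND, and the fit has a single residual degree of freedom and takes the lone sgRNA-NT library to vary like the guides. FOSL1 and FOSL2 both passed limma when ratios were centred on their median (adjusted p = 4.0e-11 and 0.0017), when the trend on transcript length was removed (0.0127 and 0.0371), and when the 251 genes with equal values in both guides were left out (1.9e-12 and 0.0012). Those settings called 23.6%, 5.64% and 19.4% of all genes. A fit without the filter on low values called 2.94% of all genes and 0 of 10 members. It took in 2421 genes at the floor in all 4 libraries, among them FOS, FOSB and ATF3, which could not be called. The gap between the guides is the only residual, so leaving out genes without a gap selects on the variance being estimated. The weight on the variance shared over genes (prior degrees of freedom) then rose from 1.40 to infinite, and to 100 after centring. The smallest p-values rest on that weight, not on more libraries. The adjusted p of FOSL1 ranged over all settings up to 0.207 and that of FOSL2 up to 0.382. The sign of their difference was the same in all 10 alternatives each. Alternatives that change only the genes tested or the variance model leave the difference itself unchanged, so its sign could not turn there.

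**Figure D2:**
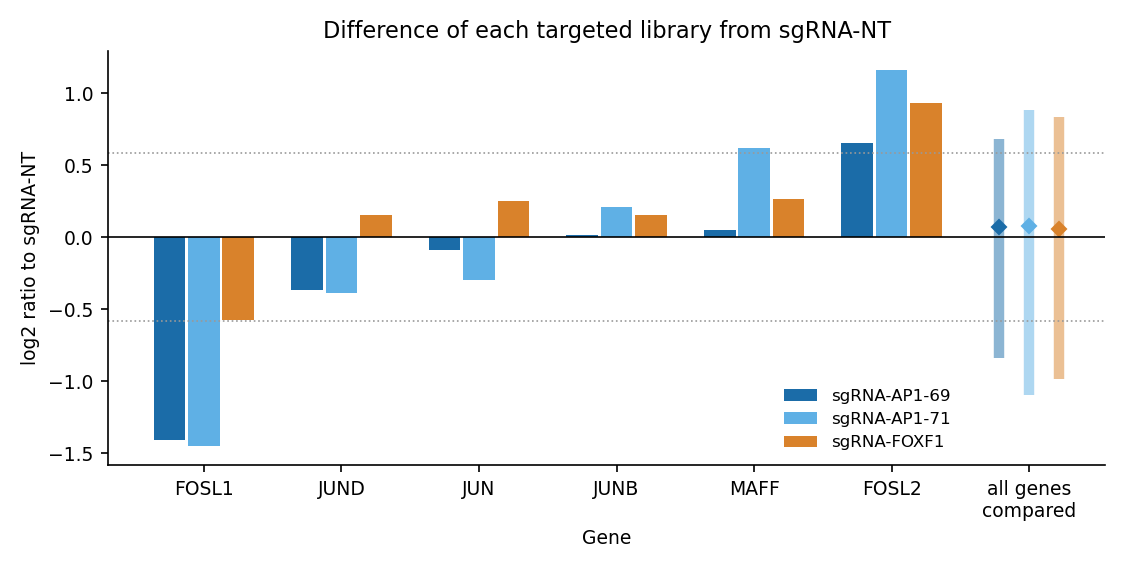
Log2 ratio to sgRNA-NT of the 6 members compared (bars, 1 library each), beside the median (diamond) and the 5th to 95th percentile (thick line) of all 7596 genes compared, with dotted lines at 1.5-fold. FOSL1 (-1.41 and -1.45) and FOSL2 (0.65 and 1.16) pass 1.5-fold with both enhancer guides, and the median of all genes lies at 0.05 to 0.08.

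JUND, a JUN-family subunit known to restrain fibroblast growth, was at 22.0 and 21.7 RPKM with both guides, against 28.4 RPKM with sgRNA-NT. The guides agree within 0.014 (SD, log2) and lie 1.29-fold and 1.31-fold below the control. JUN, the founding subunit, was at 28.9 and 25.1 RPKM with the guides, against 30.8 RPKM with sgRNA-NT, a log2 difference of -0.19 (SD 0.14). JUNB, which often opposes JUN at growth genes, was at 31.6 and 36.2 RPKM with the guides, against 31.3 RPKM with sgRNA-NT. Its difference of 0.11 is smaller than its SD of 0.14 between guides. MAFF was at 11.2 RPKM with guide 69 and 16.6 with guide 71, against 10.8 RPKM with sgRNA-NT. MAFF thus stood above the control with guide 71 and near it with guide 69, and its mean difference of 0.34 is smaller than the SD of 0.40.

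The second comparison sets sgRNA-FOXF1, 1 library, against sgRNA-NT and has no replicate check. FOSL1 was at 84.8 RPKM with sgRNA-FOXF1 against 126.6 RPKM with sgRNA-NT, 1.49-fold lower, a value between the enhancer guides and the control. FOSL2 was at 10.3 RPKM with sgRNA-FOXF1 against 5.4 RPKM with sgRNA-NT, 1.91-fold higher and between the values of both enhancer guides. At 1.5-fold, FOSL2 was the 1 of 6 members that was higher and 0 were lower, beside 11.5% and 13.1% of all genes compared. FOSL2 passed 1.5-fold in each of the 3 targeted libraries, as did 4.94% of all genes upwards. JUN was at 36.7 RPKM with sgRNA-FOXF1 against 30.8 RPKM with sgRNA-NT. JUND was at 31.6 RPKM against 28.4, JUNB at 34.8 against 31.3 and MAFF at 13.0 against 10.8 RPKM, in the same order of libraries. None of these 4 reached 1.5-fold. This comparison and the first share the single sgRNA-NT library.

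The third comparison asks whether both targets differ, with sgRNA-FOXF1 set against the mean of the enhancer guides, and does not use sgRNA-NT. FOSL1 was higher with sgRNA-FOXF1, at 84.8 RPKM against 47.7 and 46.2 RPKM with the enhancer guides, a log2 difference of 0.85 (SE 0.093 in limma). JUND was at 31.6 RPKM with sgRNA-FOXF1 against 22.0 and 21.7 RPKM with the guides (0.53), and JUN at 36.7 RPKM against 28.9 and 25.1 RPKM (0.45). For these 3 genes the sgRNA-FOXF1 library lies outside the range of the guides, on the high side. For JUND and JUN it also lies above sgRNA-NT while both guides lie below it, as for 6.27% of all genes compared. With the length trend removed, JUND with sgRNA-FOXF1 was at -0.044 and so on the same side of sgRNA-NT as the guides. For FOSL2 (0.02), JUNB (0.04) and MAFF (-0.07) the sgRNA-FOXF1 library lies between the guides. No member passed limma in this contrast (0 of 6, beside 0 of 7596 genes or 0%), with an adjusted p of 0.450 for FOSL1, JUND and JUN. At an unadjusted p under 0.05 there were 2 members, FOSL1 and JUND, beside 9.66% of all genes. In limma FOSL1 alone passed after centring (adjusted p = 0.00038, beside 6.57% of all genes) and without the genes equal in both guides (adjusted p = 0.00043, beside 4.63%).

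HRAS, which drives the ERK pathway and carries the induced mutation in these cells, moved with FOSL1. HRAS was at 446.4 RPKM with guide 69, 427.4 with guide 71 and 707.6 with sgRNA-FOXF1, against 829.4 RPKM with sgRNA-NT. Reads of the RAS transgene would be counted with it. Both genes have the same order of libraries, with for HRAS log2 ratios of -0.89, -0.96 and -0.23 and for FOSL1 of -1.41, -1.45 and -0.58. That order is not particular to them. FOXF1 has it, as do the fibroblast markers FN1, COL6A3 and COL1A1, whereas PDGFRA does not. Its share over all genes was not counted. The part of the HRAS level in the FOSL1 values was not tested.

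Transcript length and mitochondrial transcripts also moved with the targeted libraries. For the 7566 genes whose transcript length was known, Spearman correlations of length with the log2 ratio were -0.50, -0.44 and -0.45 in guide 69, guide 71 and sgRNA-FOXF1, as a description over genes that share the same 4 libraries. FOSL1 and FOSL2 lay on the far side of that trend. The 1367 genes within 1.25-fold of the length of FOSL1 had a median log2 difference of 0.26 for the enhancer guides, where FOSL1 had -1.43. The 964 genes near the length of FOSL2 had a median of -0.28, where FOSL2 had 0.91. With the length trend removed, the differences were -1.66 for FOSL1 and 1.25 for FOSL2, both larger than before. The sign of the JUNB difference turned under that correction, to -0.089. The 13 protein-coding transcripts of the mitochondrial genome, listed as a check of RNA quality, had median log2 ratios of -1.02, -1.54 and -0.77 in the same libraries, and their summed level was 97322, 83065 and 109386 RPKM against 127360 RPKM with sgRNA-NT. MT-ND4L had the largest difference of these, followed by MT-ND5, MT-ND4 and MT-ATP8. MT-CO1 (27029 RPKM) and MT-CO2 (36068 RPKM) had the same value in all 4 libraries. Quantile normalization gives equal ranks equal values, so this large part of each sum could not vary. The part of the mitochondrial transcripts in the members' values was not tested.

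Since RPKM is per length, the levels can be summed to describe the pool of FOS-type and JUN-type transcripts. FOSL1 and FOSL2 together made 56.2 RPKM with guide 69, 58.3 with guide 71 and 95.1 with sgRNA-FOXF1, against 132.0 RPKM with sgRNA-NT. JUN, JUNB and JUND together made 82.5, 83.0 and 103.1 RPKM in the targeted libraries, against 90.5 RPKM with sgRNA-NT. FOS-type transcripts therefore stood at 0.68, 0.70 and 0.92 per JUN-type transcript in the targeted libraries, against 1.46 with sgRNA-NT. Counting FOS and FOSB at the floor of 1 RPKM each, the highest level they could have, gave 0.71, 0.73 and 0.94, against 1.48 with sgRNA-NT. FOSL2 made 15.1%, 20.8% and 10.8% of the FOSL1 and FOSL2 pool, against 4.09% with sgRNA-NT. The ratio of FOSL1 to FOSL2 was 5.61, 3.82 and 8.23, against 23.4 with sgRNA-NT. Within the JUN family the shares were closer, with JUN at 30.2% to 35.6%, JUNB at 33.8% to 43.6% and JUND at 26.1% to 30.6% in the targeted libraries, against 34.0%, 34.6% and 31.4% with sgRNA-NT. These sums, shares and ratios describe mRNA, are not corrected for the trend on transcript length and carry no test.

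**Figure D3:**
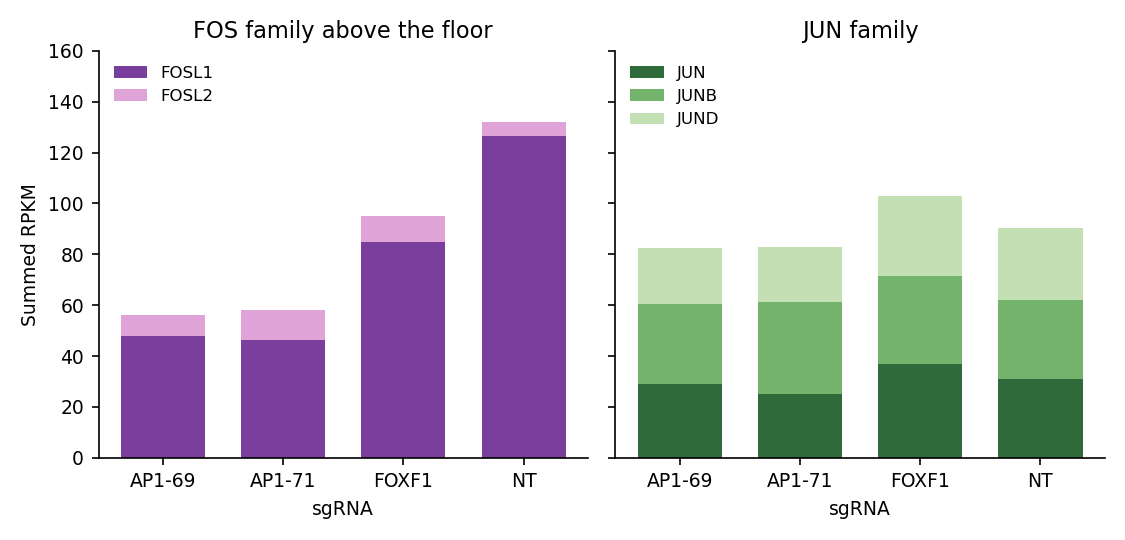
Stacked RPKM of FOSL1 and FOSL2 (left) and of JUN, JUNB and JUND (right) in each library. The FOS-type sum is 56.2, 58.3 and 95.1 RPKM in the targeted libraries and 132.0 RPKM with sgRNA-NT, while the JUN-type sum lies between 82.5 and 103.1 RPKM in all 4.

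The genes with profiles most like FOSL1 and FOSL2, the members with the widest range, were sought among 5094 genes averaging 5 RPKM or more by the root mean square difference of centred log2 values over the 4 libraries. For FOSL1 they were GOLGA3 (0.08), a Golgi protein, ARSA (0.10), a lysosomal sulfatase, and NOTCH2 (0.13), a receptor. NOTCH2 was at 7.1, 6.2 and 10.0 RPKM in the targeted libraries, against 15.6 RPKM with sgRNA-NT. For FOSL2 they were PGM1 (0.02), an enzyme of glycogen metabolism, TCF19 (0.05) and BIRC5 (0.05), which encodes survivin, a protein of the mitotic chromosomal passenger complex. BIRC5 was at 23.0, 32.6 and 28.6 RPKM in the targeted libraries, against 15.8 RPKM with sgRNA-NT. Likeness over 4 libraries is a description and carries no test.

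Of 40 genes known as AP-1 targets, 32 could be compared, and more of them were lower than higher with the enhancer guides. The list was chosen with earlier results of these data known, so its counts are a description only. At 1.5-fold with both guides the fibroblast markers were lower more often, 47.1% of them against 31.25% of these targets. Of the 32 targets, 10 were lower and 2 higher by that rule, beside 8.58% and 6.69% of all genes compared. In all 3 targeted libraries 7 were lower and 2 higher, beside 5.79% and 4.94%. Their log2 ratios had medians of -0.44 (guide 69), -0.33 (guide 71) and -0.12 (sgRNA-FOXF1), where those of all genes were 0.07, 0.08 and 0.05. By limma 0 of the 32 passed, with 12 at an unadjusted p under 0.05, 10 of them lower, beside 24.3% of all genes. ITGA2, the integrin subunit for collagen, was at 19.2, 14.2 and 8.6 RPKM in the targeted libraries, against 49.0 RPKM with sgRNA-NT. MMP3, a matrix metalloproteinase, was at 59.5, 50.0 and 34.2 RPKM, against 146.6 RPKM with sgRNA-NT. For both genes the lowest value was that of sgRNA-FOXF1, whereas FOSL1 was lowest with the enhancer guides. SERPINB2, an inhibitor of urokinase, went the other way, at 113.5, 130.6 and 189.8 RPKM, against 39.1 RPKM with sgRNA-NT. CXCL8, which encodes interleukin-8, was at 45.2 RPKM with guide 69, 350.2 with guide 71 and 67.3 with sgRNA-FOXF1, against 32.0 RPKM with sgRNA-NT. The guides thus differ more from each other for CXCL8 than guide 69 does from the control.

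**Figure D4:**
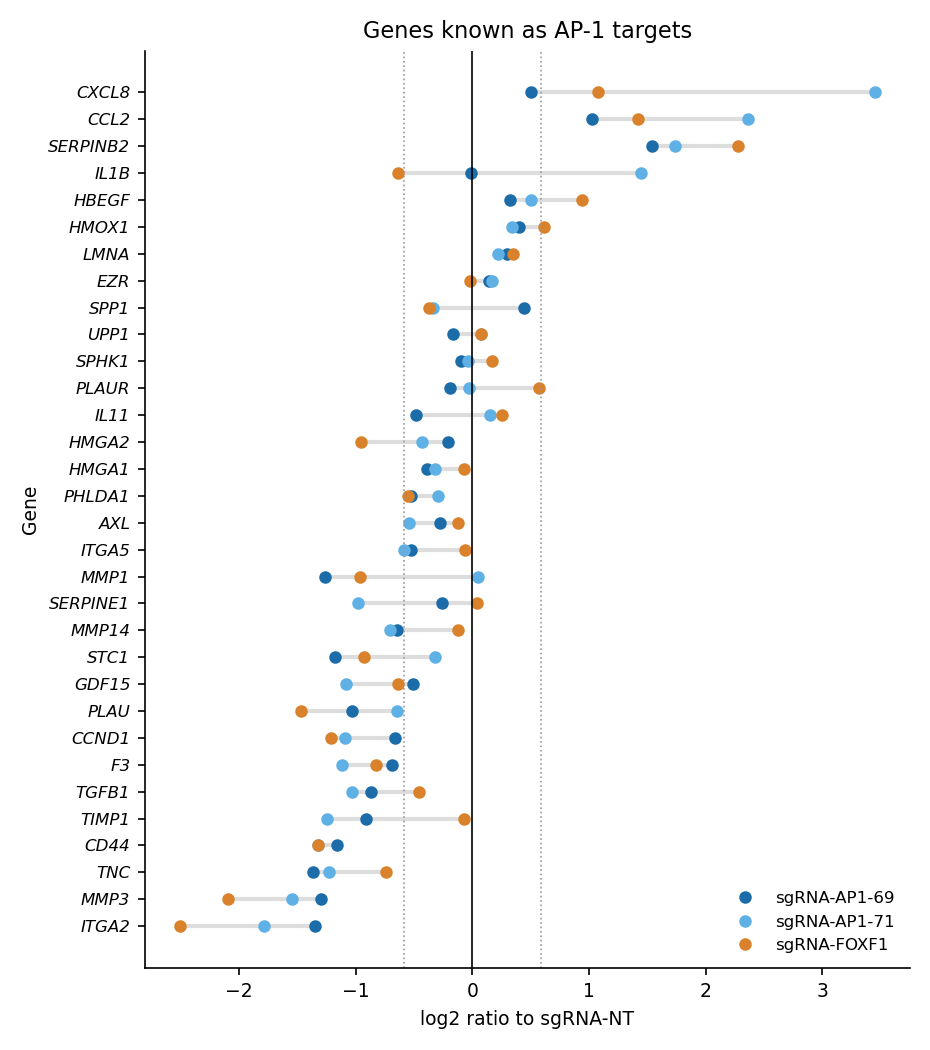
Log2 ratio to sgRNA-NT of the 32 AP-1 target genes compared, 1 point per targeted library, ordered by the mean of the enhancer guides, with dotted lines at 1.5-fold. ITGA2 and MMP3 lie lowest, SERPINB2, CCL2 and CXCL8 highest, and CXCL8, IL1B and MMP1 spread widely between libraries.

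Of 30 immediate early genes, which are transcribed within minutes of a stimulus, as FOS is, 18 could be compared, and 2 were lower and 0 higher at 1.5-fold with both guides, beside 8.58% and 6.69% of all genes, a share near the background. Those lower were ZFP36L1 and ZFP36, which encode proteins that speed the decay of AU-rich mRNAs. ZFP36L1 was at 16.5, 14.5 and 25.7 RPKM in the targeted libraries, against 33.1 RPKM with sgRNA-NT, the same order of libraries as for FOSL1. ZFP36 was at 4.7, 3.8 and 5.8 RPKM, against 7.8 RPKM with sgRNA-NT, also in that order. CTGF, a matricellular protein gene, was at 31.5, 24.0 and 17.3 RPKM, against 41.0 RPKM with sgRNA-NT, and PTGS2, which encodes cyclooxygenase-2, was at 5.4, 17.9 and 7.4 RPKM, against 5.7 RPKM with sgRNA-NT. The immediate early genes ARC, KLF4, NR4A1 and NR4A2 were at the floor in all 4 libraries, as were FOS and FOSB. EGR1, a zinc finger factor of the same kind of response picked once its values were known, was at 1.0, 1.2 and 1.3 RPKM, against 4.3 RPKM with sgRNA-NT, and its mean was too low to be compared.

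Among 41 other bZIP genes, 21 could be compared, with 2 lower (CREB3L2 and ATF7) and 1 higher (CREB3) at 1.5-fold with both guides, beside 8.58% and 6.69% of all genes. CREB3L2, a membrane-bound factor of the secretory pathway, was at 7.7, 7.5 and 7.1 RPKM in the targeted libraries, against 16.7 RPKM with sgRNA-NT. Its relative CREB3 was at 118.8, 115.8 and 116.6 RPKM, against 71.2 RPKM with sgRNA-NT. Both genes had nearly equal values in the 3 targeted libraries, unlike FOSL1. NFIL3, a repressor, was at 3.5, 5.3 and 3.0 RPKM, against 7.3 RPKM with sgRNA-NT, and TEF, of the PAR bZIP family, at 5.2, 6.5 and 7.2 RPKM, against 3.6 RPKM with sgRNA-NT.

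Of 37 genes for the kinases and phosphatases that act on AP-1 and for RAS proteins upstream of them, 25 could be compared. With both guides 1 was lower at 1.5-fold and 0 were higher, no more than the 8.58% and 6.69% of all genes. The lower gene was HRAS, which encodes neither a kinase nor a phosphatase. DUSP6, an ERK phosphatase and known ERK target, was at 54.2, 68.2 and 33.7 RPKM in the targeted libraries, against 80.8 RPKM with sgRNA-NT. DUSP6 was thus lowest with sgRNA-FOXF1, where FOSL1 and HRAS were least below the control. DUSP10, which acts on JNK and p38, was at 13.0, 8.9 and 7.8 RPKM, against 14.4 RPKM with sgRNA-NT, and the ERK-activated kinase gene RPS6KA3 at 1.8, 2.1 and 1.7 RPKM, against 2.8 RPKM with sgRNA-NT. Of 21 genes that control the transcription or turnover of AP-1, 11 could be compared, with 1 lower (MEF2D) and 2 higher (USP28 and RFWD2) at 1.5-fold with both guides, beside 8.58% and 6.69% of all genes. MEF2D, a factor of the JUN promoter, was at 8.8, 8.1 and 10.6 RPKM, against 13.7 RPKM with sgRNA-NT. ELK3, a partner of SRF that did not pass 1.5-fold with guide 71, was at 7.3, 7.9 and 8.4 RPKM, against 11.6 RPKM with sgRNA-NT. USP28, a deubiquitinase known to stabilize JUN, was at 1.9, 3.2 and 2.0 RPKM, against 1.2 RPKM with sgRNA-NT, and the F-box gene FBXL14, which did not pass 1.5-fold with guide 69, at 2.5, 3.5 and 3.4 RPKM, against 2.0 RPKM with sgRNA-NT.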

How the data were processed

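The authors mapped 65 bp single reads (TopHat2, hg19), obtained gene counts from HTSeq-count and turned them into RPKM using GENCODE v25. The deposited RPKM values of 12033 genes are quantile-normalized over 4 libraries, 1 per condition, to 1 decimal with a floor of 1. Versions of these tools, and whether counting used the strand, are not given in the sources at hand. The labels and the methods name different RNA and library kits. The deposited table also holds 3 columns with the authors' own log2 ratios to sgRNA-NT, which were not used.

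Log2 ratios were recomputed from RPKM without a pseudocount for 7596 genes averaging 2 RPKM or more. limma 3.58.1 (R 4.3.3) was fitted to all 4 libraries, the enhancer guides forming a group of 2, and was tested on simulated data. There it called 23 of 100 genes changed by 1 log2 unit, 93 of 100 changed by 2 and 10 of 7396 unchanged genes. Unlike the real values, the simulated ones held no genes equal in both guides, so these rates need not hold for the real fit. Alternatives were a pseudocount of 1, median centring, removal of the trend on transcript length (loess, GENCODE v44 lifted to GRCh37), other filters, a 2-fold rule, each guide alone, and other limma fits. Python 3.11.15, numpy 2.4.6, pandas 2.3.3 and matplotlib 3.10.9 were used.

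The members and gene lists were chosen with earlier results of these data known. Named genes are the members, FOXF1, HRAS, up to 4 genes per list with a mean of 2 RPKM or more and the largest mean absolute log2 ratio, and the 3 nearest profiles to the 2 members of widest range. Markers, mitochondrial transcripts, MYC, and genes counted in a list or seen in a plot are named outside this rule. So are genes said to be picked after their values were seen. The enhancer interval was read from the study's table of elements for its position only, and the study names FOXF1, downstream of it, as the nearest gene.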

Additional observations from a re-analysis of the deposited data

How the results depend on the processing

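The number of members passing limma for the enhancer guides was 0 and became 2 (FOSL1 and FOSL2) after median centring, after removal of the length trend and without genes equal in both guides. For sgRNA-FOXF1 against the guides it was 0 and became 1 (FOSL1) after median centring and without those genes. The prior degrees of freedom of limma were 1.40, and 100 after centring, 6.61 after length correction and infinite without genes equal in both guides. The other limma settings (pseudocount of 1, no filter, a mean of at least 5 RPKM, no trend, 3 targeted libraries as a single group) called 0 members. Members past 1.5-fold with both guides were 2, and 1 with a pseudocount of 1 or at 2-fold, and 2 to 3 with each guide alone. For sgRNA-FOXF1 against sgRNA-NT they were 1, became 2 after centring or length correction, and 0 at 2-fold. Among the differences that used the guides, signs turned for 3 members. JUNB with the guides was -0.089 after length correction, and sgRNA-FOXF1 minus sgRNA-AP1 ran from -0.057 to 0.14 for JUNB, from -0.23 to 0.28 for FOSL2 and from -0.35 to 0.22 for MAFF with each guide alone. For sgRNA-FOXF1 against sgRNA-NT, JUNB and JUND turned to -0.061 and -0.044 after length correction. The cause was not tested. No paired analysis was possible because each condition has a single library and the labels name no pairs. The floor of 1 RPKM and the unknown depth limit FOS, FOSB, ATF3 and BATF3.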

Other observations

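A group of genes known to respond to inflammatory signals stood highest in the guide 71 library. IL1B was at 113.2 RPKM with guide 69, 311.8 with guide 71 and 73.7 with sgRNA-FOXF1, against 114.5 RPKM with sgRNA-NT. IER3, an early response gene, was at 60.2, 147.1 and 85.4 RPKM, against 63.8 RPKM with sgRNA-NT, and the chemokine gene CCL2 at 10.2, 25.7 and 13.4 RPKM, against 5.0 RPKM with sgRNA-NT. The bZIP gene CEBPD, which encodes a factor of the acute phase response, was at 6.8, 11 and 5.3 RPKM, against 4.9 RPKM with sgRNA-NT. MAFF was also highest there, at 11.2, 16.6 and 13.0 RPKM, against 10.8 RPKM with sgRNA-NT. These genes were singled out after their values were seen, rest on a single library and carry no test.

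The other small MAF genes, also picked after their values were seen, did not share the order of MAFF. MAFK was at 6.1, 5.5 and 4.7 RPKM in the targeted libraries, against 8.7 RPKM with sgRNA-NT, and MAFG at 14.2, 14.1 and 15.9 RPKM, against 17.7 RPKM with sgRNA-NT. MYC, an early gene linked to growth, was at 20.1 RPKM with guide 69, 16 with guide 71 and 28.1 with sgRNA-FOXF1, against 20.1 RPKM with sgRNA-NT, the same order as for JUN but for guide 69, which equals the control.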
